A study of Saccharomyces cerevisiae with 4 samples.

Results

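The cytosolic ribosomal protein genes of Saccharomyces cerevisiae were compared between a protein O-mannosylation mutant and its parent strain. Members were the genes named RPL or RPS with a number and at most a letter A or B that had a probe set annotated to that gene alone. Where several such probe sets existed, the one with the highest mean was used. This gave 75 genes, 42 of the large and 33 of the small subunit, among 5656 genes with a probe set of their own. The current annotation holds 132 genes of this kind, 76 RPL and 56 RPS. Of the 57 that were not members, 54 were named only on probe sets shared by several genes, and the others were not analysed here.

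Total RNA from exponentially growing cells was hybridised to Affymetrix yeast arrays. The groups were pmt1 pmt2 cells in the SEY6210 background and wild type SEY6210 cells, with 2 arrays each, and per the design text each array came from its own biological sample. Both strains were diluted to an OD of 0.1, grown until 0.45 and then for a further 3 hours. The labels do not say which part of either PMT gene was altered. PMT2, for a mannosyltransferase of the endoplasmic reticulum, had signals of 11.9 and 15.5 in pmt1 pmt2 and 2645.5 and 2771 in wild type. PMT1, for its partner enzyme, had signals of 111 and 104 in pmt1 pmt2 and 1178 and 809 in wild type, so both labels matched the mutated genes.

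Ribosomal proteins build the large and small subunits of the ribosome around the ribosomal RNAs. In budding yeast their genes are transcribed together under Rap1, Fhl1 and Ifh1, in step with growth and nutrient signals through TORC1, and they are repressed together in many stresses. Most exist as A and B paralogues left by an ancient genome duplication, whose proteins are identical or nearly so.

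These genes gave some of the brightest signals on the arrays, though signals of different probe sets do not rank transcript levels. They made up 42 of the 100 brightest genes and 63 of the 200 brightest, and their median signal per array was 3768 and 3630 in pmt1 pmt2 and 4427 and 4049 in wild type. RPS22A (YJL190C), for a small subunit protein, had the highest mean of the family. Its signals of 10908 and 9876 in pmt1 pmt2, and of 12338 and 11918 in wild type, included the highest of any probe set on 3 of the 4 arrays. The lowest mean was that of RPL15B (YMR121C), still above 26.2, the highest that any of 19 probe sets for foreign control transcripts reached. All members lay above that level on every array. Together they gave 15.7% and 12.8% of the summed signal of the 5656 genes in pmt1 pmt2, against 16.4% and 15.7% in wild type. The unrounded shares did not overlap between the groups (15.668% on the higher pmt1 pmt2 array and 15.674% on the lower wild type array), a gap far smaller than the spread within either group.

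No member passed the test for a difference between the strains, and 71 of 75 had a log2 change below 0, most of them small. Over the 4 arrays, 47.5% of all genes were below 0. After quantile normalization the count of members was 62 (51.0% of all genes). It was 52 without the second pmt1 pmt2 array (61.0% of all genes) and 47 without the first wild type array (48.0% of all genes). By limma, 0 of 75 reached an adjusted p under 0.05 (0 at unadjusted p under 0.05), against 22 of 5656 genes (0.389%) and 406 (7.18%) over the array. The smallest limma adjusted p of a member was 0.773. Even the narrowest 95% interval of a member, that of RPS15, ran from −0.97 to 0.67. Changes as small as those of most members could thus not pass, and the counts of 0 do not show their absence. With the array number as a block in limma, 0 members passed (3.02% of all genes), and RPS26B and RPL7B alone had an unadjusted p under 0.05 (18% of all genes). The median log2 change of the family was −0.16, a ratio of 0.898, with the middle 50% of members between −0.24 and −0.10. All genes had a median of 0.03 and a middle 50% from −0.26 to 0.34. A log2 change of at most 0.25 in size was found for 56 of the 75 members, against 43.6% of all genes, and 7 members passed 0.5 in size, against 29.1% of all genes. Other bright genes also had smaller changes than all genes. Of 160 with a mean log2 signal of at least 11, 96 lay within 0.25 and 25 passed 0.5. Of 53 with at least 12, 39 lay within 0.25 and 5 passed 0.5. In bulk RNA, a smaller number of cells that express these genes and less of their mRNA per cell cannot be told apart.

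The direction was shared by both array numbers. Arrays numbered 1 and 2 differed in control probe sets. The 3′ over 5′ signal ratio for actin was 3.15 for pmt1 pmt2 and 2.99 for wild type on the arrays numbered 1, and 1.32 for pmt1 pmt2 and 1.38 for wild type on those numbered 2. Changes were therefore also taken within each number. For the family the median log2 change was −0.18 within number 1 and −0.15 within number 2. All genes had medians of −0.15 and 0.21. The family's median thus lay close to that of all genes in number 1 and below it in number 2. The family median minus the all-gene median was −0.18, −0.47 without the first pmt1 pmt2 array and 0.08 without the second, so its sign relative to all genes rests on the second pmt1 pmt2 array. Quantile normalization left the family median at −0.07 and this difference at −0.06. A log2 change below 0 within both numbers was found for 64 of 75 members, against 31% of all genes, and above 0 within both for 2, RPL15B and RPL30, against 31.9%. Signals that did not overlap between the groups were lower in pmt1 pmt2 for 22 members (14.7% of all genes) and higher for 0 (18.5% of all genes).

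**Figure D1:**
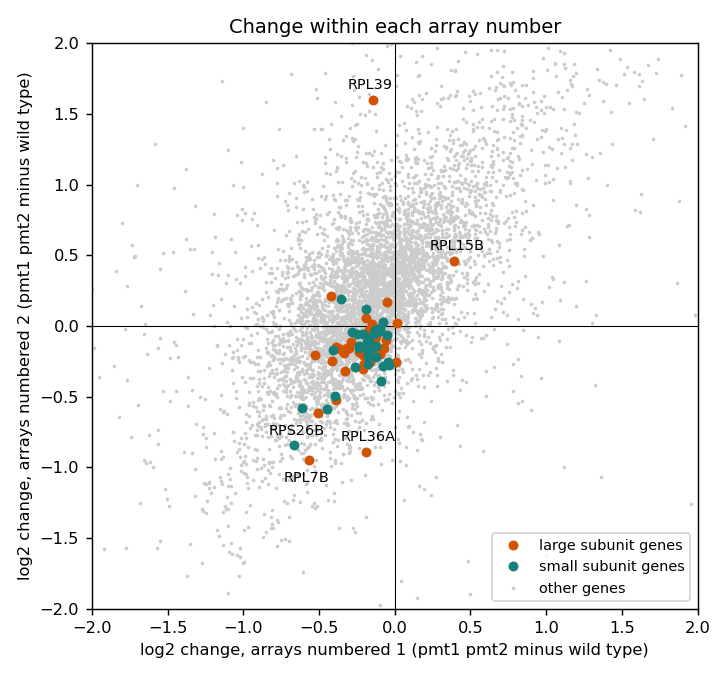
Each point is a gene, with its log2 change (pmt1 pmt2 minus wild type) on the arrays numbered 1 on the horizontal axis and on those numbered 2 on the vertical axis, for large subunit genes, small subunit genes and other genes; 244 other genes lie outside the axes. Most ribosomal protein genes form a compact group below 0 on both axes, with RPL39 and RPL15B away from it.

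Bright genes outside the family had a median nearer 0. This comparison was added after the values were seen, and the difference was not tested. The 160 other genes with a mean log2 signal of at least 11 had a median of −0.07 (−0.11 in number 1 and 0.01 in number 2). The 66 members above the same level had −0.16 (−0.17 and −0.16 within the numbers). Of the other bright genes, 45.6% were below 0 within both numbers and 19.4% were lower without overlap, against 59 and 20 of the 66 members. The bright non-members spread more widely, from −1.47 to 2.10, than the members, from −0.60 to 0.73. With a mean log2 signal of at least 12, the medians lay closer together. The 53 other genes then had −0.09 (−0.11 in number 1 and −0.02 in number 2), and the 36 members −0.15 (−0.14 and −0.16).

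**Figure D2:**
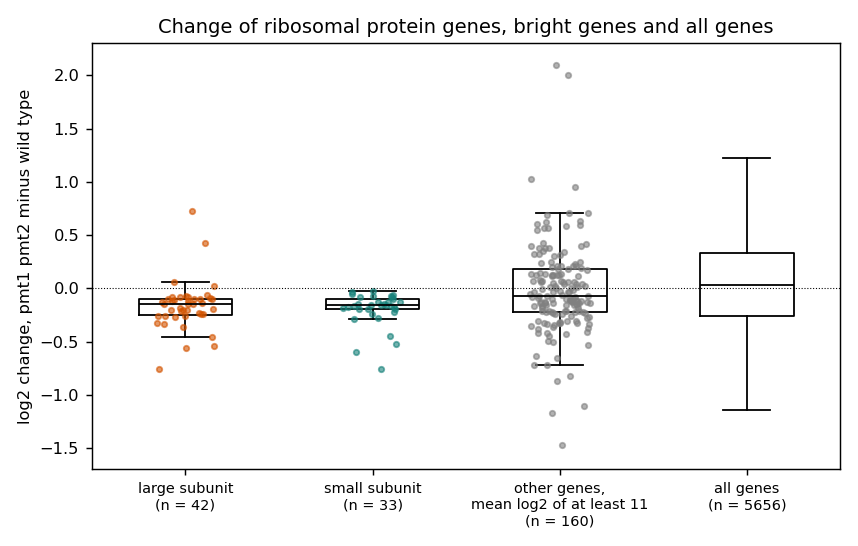
The log2 change (pmt1 pmt2 minus wild type) is shown for large subunit genes, small subunit genes, other genes with a mean log2 signal of at least 11, and all genes; boxes give the median and the middle 50%, whiskers reach to 1.5 box lengths, and points are single genes (not drawn for all genes). Both subunits have medians near −0.15 in narrow boxes, while the bright other genes and all genes spread to both sides of 0.

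Large and small subunit genes had nearly the same change. For the 42 RPL genes the median log2 change was −0.15 (−0.17 in number 1 and −0.15 in number 2), and for the 33 RPS genes −0.16 (−0.18 in number 1 and −0.15 in number 2). The difference of the unrounded medians, large minus small, was 0.011, and it turned to −0.012 after quantile normalization. All 33 RPS genes and 38 of 42 RPL genes had a log2 change below 0. Signals were lower without overlap for 12 RPL and 10 RPS genes, against 14.7% of all genes and 19.4% of the other bright genes. Per array, the median log2 signal of RPL genes was 11.85 and 11.81 in pmt1 pmt2 and 12.07 and 11.91 in wild type. That of RPS genes was 11.95 and 11.91 in pmt1 pmt2 and 12.21 and 12.12 in wild type. The medians of either subunit were lower on both pmt1 pmt2 arrays than on both wild type arrays.

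Several large subunit genes with no paralogue had log2 changes of at most 0.26 in size, while RPL39 had the highest of the family. RPL3 (YOR063W), for a protein at the peptidyl transferase centre, had signals of 2963 and 3301 in pmt1 pmt2 and 3731 and 3777 in wild type, without overlap (log2 change −0.26). RPL5 (YPL131W), for the protein that binds 5S ribosomal RNA, had 7113 and 6505.5 in pmt1 pmt2 and 7816 and 6741 in wild type, with overlap (−0.09). RPL10 (YLR075W), for a protein required to join the subunits, had 5928 and 6515 in pmt1 pmt2 and 6580.1 and 6453 in wild type, also with overlap (−0.07). These genes, RPL25, RPL30 and RPS3 were picked for their roles after their values were seen. RPL25 (YOL127W), for a protein at the exit of the peptide tunnel, had 3291 and 3135 in pmt1 pmt2 and 3824 and 3474.5 in wild type, lower without overlap (−0.18). RPL30 (YGL030W), whose protein represses the splicing of its own transcript, had 5115 and 3565 in pmt1 pmt2 and 5055.5 and 3512.5 in wild type. Its log2 change was 0.02 and turned to −0.04 when arrays were centred on their medians. In RPL30 the arrays numbered 1 and 2 differed far more than the strains did.

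In the small subunit, RPS31 (YLR167W) encodes a ribosomal protein fused to ubiquitin. It had signals of 6998 and 5796.5 in pmt1 pmt2 and 7476 and 5866 in wild type, with overlap (log2 change −0.06, 95% interval −0.93 to 0.82). After quantile normalization the change was 0.02. The other ubiquitin fusion genes, RPL40A and RPL40B, had no probe set of their own, and 3 shared probe sets gave log2 changes of −0.46, −0.14 and −0.09. RPS3 (YNL178W), for a protein at the entry of the mRNA channel, had 7553 and 6527 in pmt1 pmt2 and 8511 and 6912 in wild type, with overlap (−0.13). For the 17 members without a paralogue the median log2 change was −0.10 (−0.14 in number 1 and −0.06 in number 2), and for the 58 A and B genes −0.19 (−0.19 and −0.17). The f and i probe sets described below all belonged to A and B genes, so gene class and probe set type were not separated.

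A few members differed more than the rest, and none passed the test. The lowest log2 change was that of RPL7B (YPL198W), for a large subunit protein, with 336 and 278 in pmt1 pmt2 and 497 and 538 in wild type. The groups did not overlap (log2 change −0.76, 95% interval −1.60 to 0.09, limma adjusted p = 0.773). A second RPL7B probe set, not used, gave −0.10, the widest disagreement between probe sets of a member. RPS26B (YER131W), for a protein near the mRNA exit channel, had 1361.5 and 776 in pmt1 pmt2 and 2155 and 1394 in wild type, without overlap (−0.75, 95% interval −1.84 to 0.34, limma adjusted p = 0.904). RPS28B (YLR264W), for a small subunit protein, had 2385 and 4577 in pmt1 pmt2 and 3648 and 6852 in wild type. Its signals overlapped between the groups, since both strains were higher on the array numbered 2, yet the log2 change was −0.61 within number 1 and −0.58 within number 2. Leaving out a pmt1 pmt2 array took the RPS28B change to −0.13 (array 1) or −1.07 (array 2), and that of RPS26B to −1.16 or −0.35.

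**Figure D3:**
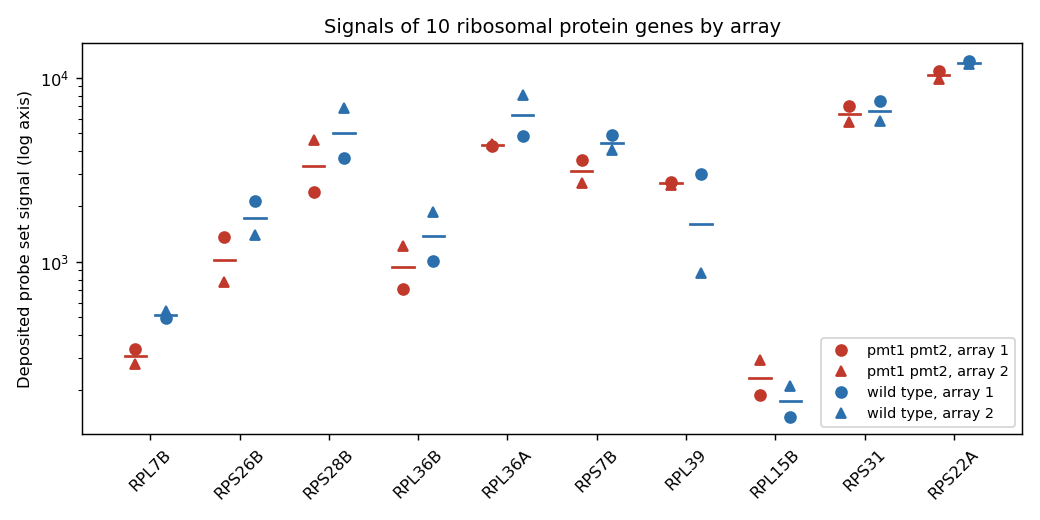
Deposited signals, on a log axis, of 10 ribosomal protein genes on the 2 pmt1 pmt2 arrays (left of each gene) and the 2 wild type arrays (right); circles are arrays numbered 1, triangles arrays numbered 2, and bars geometric means. RPL7B, RPS26B, RPL36A, RPS7B and RPS22A show groups that do not overlap, and a single wild type array, at 864.6, sets RPL39 apart.

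The RPL36 and RPS7 genes were also among the lower members. RPL36A (YMR194W), for a large subunit protein, had 4264 and 4364 in pmt1 pmt2 and 4857 and 8087 in wild type (log2 change −0.54, limma adjusted p = 0.966). The second wild type array was much the highest, so the change was −0.19 within number 1 and −0.89 within number 2. Its paralogue RPL36B (YPL249C-A) had 714 and 1222 in pmt1 pmt2 and 1015 and 1870.1 in wild type, with overlap (−0.51 and −0.61 within the numbers). Leaving out 1 array gave changes from −0.91 to −0.17 for RPL36A and from −1.001 to −0.12 for RPL36B. RPS7B (YNL096C), for a small subunit protein, had 3588 and 2697 in pmt1 pmt2 and 4900.3 and 4049 in wild type, without overlap (−0.52, limma adjusted p = 0.945). The next largest differences without overlap were those of RPL17A (YKL180W), RPS1B (YML063W), RPS9B (YBR189W) and RPL21B (YPL079W). Their log2 changes were −0.32, −0.29, −0.28 and −0.27, each with a limma adjusted p of 0.994. Further probe sets, not used, gave −0.49 for RPS7B, −0.09 for RPL17A and −0.26 for RPS9B, each with overlap between the groups.

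Only 4 members had a log2 change above 0. RPL39 (YJL189W), for a small protein lining the peptide exit tunnel, had the highest, at 0.73. Its signals were 2724 and 2626 in pmt1 pmt2 and 3004 and 865 in wild type, so the value rests on the second wild type array. Without that array the change was −0.17. RPL15B, for a protein of the large subunit core, had signals of 189 and 292 in pmt1 pmt2 and 144 and 212 in wild type. Its groups overlapped, and its log2 change was 0.43 (95% interval −0.58 to 1.44, limma adjusted p = 0.994), with 0.39 within number 1 (0.395 unrounded) and 0.46 within number 2. Leaving out 1 array gave from 0.12 to 0.74. The others were RPL14B (YHL001W) at 0.06, which turned to −0.004 when arrays were centred, and RPL30.

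The 2 arrays of a strain often differed by more than the strains did. For 59 of the 75 members, the log2 difference between the 2 arrays of at least 1 strain exceeded the change between strains. This count sets the larger of 2 differences between single arrays against a difference of means. It would be high without any shift by array number, so it does not measure such a shift. The second minus the first array correlated between the strains at r = 0.80 across the 75 genes, which share the 4 arrays and are not independent. Across the 5581 other genes the same correlation was r = 0.65, so the shared shift was not particular to the family. RPL13A (YDL082W), for a large subunit protein, had 1448 and 2703 in pmt1 pmt2 and 1894 and 3889.9 in wild type. RPL9A (YGL147C), also of the large subunit, went the other way, with 1311 and 779.9 in pmt1 pmt2 and 1751 and 674 in wild type. Shifts of this kind appeared in both strains, and their part in any single value was not tested.

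The A and B paralogues could be set against each other in 29 of 57 families. In the other 28 neither gene had a probe set of its own. Signals of different probe sets are not comparable as levels, so only the change of the log2 A over B ratio between strains was used. The ratio differed little between the strains: the median change was 0.02 (0.03 and −0.05 within the numbers), and 24 of 29 pairs lay within 0.25 in size. The ratio moved in the same direction within both array numbers in 13 pairs and in opposite directions in 16. In 27 pairs both genes were lower in pmt1 pmt2, and in RPL15 and RPL14 the A gene was lower and the B gene higher. An exact permutation test of 2 against 2 arrays cannot go below p = 0.333, and no other test of the ratios was made.

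RPS26 was the 1 of 29 pairs (3.45%) whose ratios did not overlap between the groups. For comparison, the signals of 14.7% of all genes were lower and of 18.5% higher without overlap, so 1 pair is not a high count. The log2 ratio of RPS26A to RPS26B was 2.59 and 2.90 in pmt1 pmt2, against 2.01 and 2.34 in wild type. The change was 0.57, with 0.59 and 0.56 within the numbers and values from 0.41 to 0.74 when an array was left out. RPS26A (YGL189C) itself had signals of 8212 and 5783 in pmt1 pmt2 and 8652 and 7053 in wild type (log2 change −0.18), so the lower signal of RPS26B set most of this difference. After quantile normalization the change of the ratio was 0.59 but its values overlapped, and RPL14 was then the pair without overlap. With all probe sets of a gene averaged, RPS26, RPS7, RPL27 and RPL31 did not overlap.

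Besides RPS26, RPL15 and RPS28 had a change of over 0.4 in size in the same direction within both numbers, 3 pairs in all. The log2 ratio of RPL15A to RPL15B was 4.23 and 3.22 in pmt1 pmt2 and 4.79 and 3.94 in wild type (−0.56 and −0.72 within the numbers). The mean change of −0.64 was −1.14 without the first pmt1 pmt2 array and −0.13 without the second, and −0.21 or −1.06 without the first or second wild type array. That of RPS28A to RPS28B was 0.62 and −0.43 in pmt1 pmt2 and 0.14 and −0.99 in wild type (0.48 and 0.56 within the numbers), with changes from −0.042 to 1.08 when an array was left out. In both pairs the arrays of a strain differed more than the strains, so the groups overlapped. Another RPS28A probe set, not used, gave log2 changes of −0.56 and 0.07 within the numbers, against −0.13 and −0.03 for the one used. RPS28B had −0.61 in number 1, so the size of the RPS28 ratio change there depends on the probe set. RPL7 had a change of 0.39 that came from number 2 alone (0.04 and 0.75 within the numbers) and was 0.01 with all probe sets of each gene averaged. RPS7 had 0.28 (0.36 and 0.20 within the numbers). At the other end, the ratios of RPS21 and RPS29 differed by −0.002 and 0.01. RPS21A (YKR057W) and RPS21B (YJL136C) had log2 changes of −0.17 each, and RPS29A (YLR388W) and RPS29B (YDL061C) both −0.16.

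**Figure D4:**
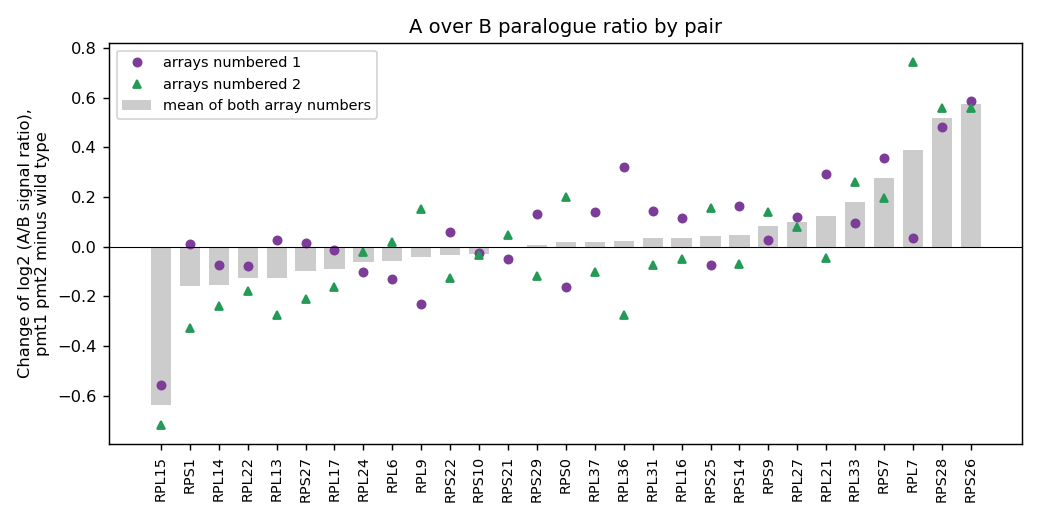
Change of the log2 A over B signal ratio (pmt1 pmt2 minus wild type) for the 29 pairs, ordered by size; bars are the mean of both array numbers and points the values within each. RPL15 lies lowest and RPS28 and RPS26 highest, and most other pairs have points near 0 or on both sides of it.

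Near-identical paralogues limit how far a signal can be credited to 1 gene. Of the 75 probe sets used, 45 had no special suffix, and 30 carried an f or i suffix, which the maker gave where a full set of unique probes could not be chosen. Both kinds had similar changes, with medians of −0.19 for the f and i sets and −0.14 for the rest. The probe sets left out gave the same picture as those used. The 59 probe sets shared by several ribosomal protein genes, from 37 families, had a median of −0.16 (−0.23 in number 1 and −0.12 in number 2), and 56 were below 0. The 24 further probe sets of members had a median of −0.24, and 23 were below 0. These come from the same 4 arrays and are not separate support.

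Members that lie next to each other on a chromosome did not always have like values. RPS14B, RPS22A and RPL39 are consecutive in the annotation and had log2 changes of −0.08, −0.22 and 0.73, the last resting on the single low array described above. RPL24A (YGL031C), next to RPL30, had −0.21, against 0.02 for RPL30. RPS9B and RPL21A (YBR191W) had −0.28 and −0.15.

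Of the 8 related lists, 7 had a median below 0, and the regulators of transcription did not. None of their members reached limma's adjusted p under 0.05, against 0.389% of all genes. Counts at limma's unadjusted p under 0.05 are given by list, against 7.18% of all genes (102 lower and 304 higher of 5656). A log2 change below 0 within both numbers was found for 31% of all genes. The 5 stalk P proteins, which bind translation factors, had a median log2 change of −0.13 (0 at unadjusted p under 0.05), with RPP1A (YDL081C) at −0.22 and RPP2B (YDR382W) at −0.18, both lower without overlap. The 9 dedicated chaperones, which escort single ribosomal proteins to the nucleus or the assembling ribosome, had −0.32, and all were below 0 within both numbers (0 at unadjusted p under 0.05). Among them YAR1 (YPL239W), the chaperone of Rps3, had 158 and 183 in pmt1 pmt2 and 279 and 315 in wild type (−0.80, limma adjusted p = 0.742). ACL4 (YDR161W), the chaperone of Rpl4, had 43.0 and 44.2 in pmt1 pmt2 and 70.6 and 66.1 in wild type (−0.65, limma adjusted p = 0.853).

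The transcription regulators of these genes showed no common shift. Their 16 members, among them RAP1, FHL1, IFH1 and SFP1, had a median log2 change of 0.03, which turned to −0.03 when arrays were centred (0 at unadjusted p under 0.05). YAK1 (YJL141C), a kinase that acts on the corepressor Crf1, had 91.8 and 126 in pmt1 pmt2 and 68.9 and 71.5 in wild type, higher without overlap (0.62, limma adjusted p = 0.897). CRF1 (YDR223W) had 10.5 or less on all arrays, below the control level of 26.2, so no fold is given.

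The medians of the translation factor lists depended on which arrays were kept. The 24 of 26 initiation factors measured had a median of −0.30 (−0.36 in number 1 and −0.24 in number 2, 0 at unadjusted p under 0.05). Leaving out the first pmt1 pmt2 array took it to −0.015, and leaving out the second to −0.62, against −0.23 and −0.059 for the ribosomal proteins. TIF3 (YPR163C), for eIF4B, had 528 and 562 in pmt1 pmt2 and 828 and 824.5 in wild type (−0.60, limma adjusted p = 0.890). TIF4631 (YGR162W), for eIF4G, had 121 and 171 in pmt1 pmt2 and 159 and 275 in wild type, with overlap (−0.54, and from −0.93 to −0.15 without 1 array). The 10 of 14 elongation and termination factors measured had a median of −0.21 (1 lower and 1 higher at unadjusted p under 0.05), and from −0.22 to −0.083 without 1 array. ANB1 (YJR047C), the hypoxic gene for eIF5A, had 115 and 168 in pmt1 pmt2 and 591 and 936 in wild type (−2.42, limma adjusted p = 0.132, and 0.00542 with the array number as a block). HEF3 (YNL014W), for a translation elongation factor, had 40.4 and 52.0 in pmt1 pmt2 and 23.8 and 17.9 in wild type, where it was below the control level. The 9 of 11 ribosome-associated proteins measured had −0.33 (0 at unadjusted p under 0.05), and from −0.52 to −0.048 without 1 array, with ZUO1 (YGR285C), a chaperone of nascent chains, at −0.42 and STM1 (YLR150W), which binds inactive ribosomes, also at −0.42. The signals of STM1 overlapped between the groups, and its change was −0.030 without the first pmt1 pmt2 array and −0.81 without the second.

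The 52 ribosome biogenesis genes named NOP, UTP or RRP had a median of −0.51 (−0.48 in number 1 and −0.56 in number 2). Of these, 46 were below 0 within both, against 31% of all genes. At limma's unadjusted p under 0.05, 4 were lower and 0 higher, against 7.18% of all genes in either direction (102 lower of 5656). Without 1 array the median ran from −0.66 to −0.32. NOP16 (YER002W), for a large subunit assembly factor, had 89.4 and 64.5 in pmt1 pmt2 and 151 and 184 in wild type (−1.13, limma adjusted p = 0.532). NOP14 (YDL148C), for a small subunit assembly factor, had 41.8 and 41.9 in pmt1 pmt2 and 73.3 and 103 in wild type (−1.06, limma adjusted p = 0.568). Mitochondrial ribosomal protein genes, 69 in all, had a median of −0.37 with a wide gap between the numbers (−0.58 and −0.19, 1 lower at unadjusted p under 0.05). MRPL24 (YMR193W), for a protein of the large mitochondrial subunit, had −0.97 and MRPS28 (YDR337W), of the small one, −0.86. No test was made of the differences between these medians and that of the cytosolic ribosomal proteins.

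**Figure D5:**
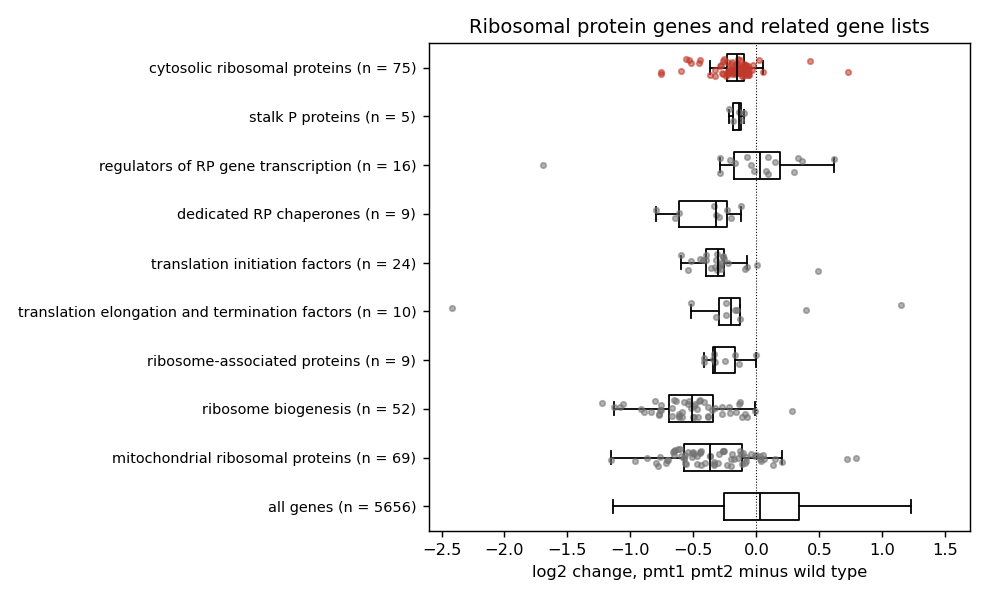
The log2 change (pmt1 pmt2 minus wild type) of the cytosolic ribosomal protein genes, 8 related lists and all genes; boxes give the median and the middle 50%, whiskers reach to 1.5 box lengths, and points are single genes (not drawn for all genes). The cytosolic ribosomal proteins lie in a narrow band near −0.16, and ribosome biogenesis genes lie at −0.51; without the second pmt1 pmt2 array or the first wild type array, initiation factors (−0.62 and −0.58) lie below biogenesis genes (−0.32 and −0.35).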

How the data were processed

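The authors deposited linear probe set intensities with 1 decimal for 9335 probe sets on 4 arrays. The submitters' processing notes name GCRMA, but the values hold zeros and differ in distribution between arrays, so the summary and any scaling are uncertain. Zeros were set to 0.1 before log2, with no further normalization. Of the probe sets, 6504 named 1 gene, 328 several and 2503 none in the platform annotation. Locus tags came from the R64 gene table, in which all 75 members were found. Strains were compared by a two-sided limma fit (version 3.58.1, R 4.3.3, lmFit with eBayes) on 5656 genes without a filter, with Benjamini-Hochberg adjustment. The script was tested on simulated data with changes far larger than those of the members. That test therefore does not bear on the detection of changes of their size. The number of arrays limits the precision.

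The members, lists and naming rule were chosen with earlier results of these data known. The rule named PMT1 and PMT2, up to 8 non-overlapping members with the largest rise and fall, the brightest and dimmest member, the ubiquitin fusions, up to 6 non-overlapping pairs with the largest ratio change, the 2 pairs with the smallest, and 2 genes per related list with the smallest p. Other members and pairs were named after their values were seen. Alternatives were quantile normalization, centring, a floor of 1, a minimum mean log2 of 6, averaged probe sets, a mean-variance trend, robust spread, a replicate block on array number, and fits lacking 1 array each.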

Additional observations from a re-analysis of the deposited data

How the results depend on the processing

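No ribosomal protein gene passed limma's adjusted p under 0.05 in any of the 12 alternative fits. The labels do not pair the arrays, and with the replicate block the smallest adjusted p of a member was 0.192 (RPS26B), while calls over all genes numbered 171, against 22 without it. Calls over all genes were 2 after quantile normalization, 1 with a floor of 1, 38 with a minimum mean log2 of 6, and from 0 to 62 without 1 array. The related lists, whose alternatives were chosen after seeing the data, gave 1 call with that minimum and 1 with the block, and 0 to 1 without 1 array. After quantile normalization the median log2 change was −0.069 for the family, −0.059 for RPS genes, −0.0097 for all genes, and −0.012 for the RPL minus RPS difference. The RPS21 ratio was then 0.0018 and RPS31 0.016. With arrays centred, RPS genes had −0.22, the regulators −0.032, all genes −0.034, RPL14B −0.0040 and RPL30 −0.041. The minimum mean log2 gave −0.0029 for all genes, and averaging probe sets gave −0.031 for the regulators and 4 non-overlapping pairs. Leaving out 1 array gave −0.25 to −0.059 for the family, −0.23 to −0.058 for RPL genes, −0.28 to −0.058 for RPS genes, −0.012 to 0.047 for their difference, −0.14 to 0.24 for all genes, −0.47 to 0.081 for the family minus all genes and −0.14 to 0.080 for the regulators. It gave 10 to 19 non-overlapping pairs, since 1 array against 2 overlaps less by construction, and a median pair change of −0.0069 to 0.022. Ratio changes then ranged from −0.23 to 1.01 for RPL7, −0.055 to 0.052 for RPS21, −0.042 to 1.08 for RPS28, −0.085 to 0.098 for RPS29 and −0.0040 to 0.56 for RPS7. Single genes ranged from −0.021 to 0.13 for RPL14B, −0.24 to 0.28 for RPL30, −0.17 to 1.63 for RPL39, −0.43 to 0.072 for RPS26A, −0.39 to 0.069 for RPS29B and −0.23 to 0.12 for RPS31. The cause of these other shifts was not tested.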
